A study of Mus musculus with 4 samples.

Results

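The BCL2 family sets the threshold at which a cell commits to mitochondrial apoptosis, and 10 of its genes were followed here in the developing midface of the mouse. They were taken by name, and all 10 were present among the 13577 genes of the deposited table. Bcl2, Bcl2l1 and Mcl1 made up the 3 survival members, Bax and Bak1 the 2 pore-forming members, and Bid, Bad, Bcl2l11, Bbc3 and Pmaip1 the 5 BH3-only members.

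The tissue was the nasal process (NP) of E11.5 embryos, profiled by bulk RNA-Seq in 2 libraries titled control and 2 titled ca-Acvr1 mutant. By the study's methods, mutants are heterozygous for the floxed transgene ca-Acvr1(A11), in which the CAG promoter drives a constitutively active form of the BMP type I receptor ACVR1 after Cre excision, and mutants and controls alike carry P0-Cre, which is active in neural crest cells. Epithelium, endothelium and blood of the NP do not derive from the neural crest and stay in the dissected tissue. The genotype entries contradict the titles, since they place the transgene in the libraries titled control and P0-Cre alone in those titled mutant. Groups are named here by title. Should the genotype entries hold instead, all directions given below turn around. Acvr1 was at 21.5 and 23.1 CPM (read counts scaled so that all libraries have one common total) in control and 24.1 and 12.6 CPM in mutant libraries (limma log2 fold change −0.33, SE 0.28, adjusted p = 0.786). These values cannot settle the question. Reads lie at the 3′ ends of transcripts, and the study's allele name lists EGFP after ACVR1, so transgene transcripts need not count as Acvr1. No label says whether the 2 libraries of a group came from separate embryos or litters, so p-values measure only the spread between these libraries.

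Survival proteins of the family hold the pore-forming proteins BAX and BAK in check on the outer mitochondrial membrane. BH3-only proteins are made or activated under stress, bind the survival proteins, and in some cases activate BAX and BAK directly. Once BAX or BAK opens the membrane, cytochrome c escapes and caspases are activated. In the embryonic face, programmed cell death accompanies the outgrowth and fusion of the processes, and neural crest cells are known to be sensitive to p53, a transcription factor that acts on several genes of the family.

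The libraries held between 1956831 and 2408827 reads, so that 1 read equaled 0.415 to 0.511 CPM, and the members had between 4 and 480 reads in a library. The reads lie at the 3′ ends of transcripts and do not grow in number with transcript length. CPM levels were therefore compared between genes without dividing by length. Whether reads are captured equally well for different genes was not assessed. That limit bears on the order, sums, shares and ratios of members below. Isoforms that share a 3′ end, such as the long and short forms of BCL-X and MCL-1, cannot be told apart. Cell type markers were not level between the groups. The summed CPM of 14 neural crest mesenchyme markers ran from 1633 to 1936 in the control and from 961 to 967 in the mutant libraries, with 9 of them called lower and 1 holding values that were not whole reads. Epithelial markers (13 of 13 listed) summed to 283 to 305 in the control and 441 to 479 in the mutant libraries, with 3 called higher. Neural markers (13 of 13 listed) summed to 1494 to 1512 and 1869 to 1988, with 0 called and a median log2 fold change of 0.18. Macrophage markers (10 of 12 listed) summed to 55.2 to 57.3 and 93.4 to 130.1, with 2 called higher. Muscle markers (5 of 8 listed) summed to 34.8 to 45.7 and 31.6 to 33.2, with 0 called. Pax7 was in both the muscle and the mesenchyme list. Endothelial markers (10 of 10 listed, 218 to 225 and 214 to 227) and erythroid markers (8 of 13 listed, 7051 to 8503 and 6724 to 7229) overlapped between the groups. In bulk tissue, fewer cells of a type and less RNA per cell cannot be told apart, and the part of these marker differences in the values below was not tested.

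None of the 10 members passed the test between the groups. With limma and an adjusted p threshold of 0.05, 0 of 10 members were called, against 0.899% of the 12462 genes tested. edgeR and DESeq2 on the recovered reads also called 0 members. Bax and Bbc3, the genes of a pore-forming protein and of the BH3-only protein PUMA, reached an unadjusted p under 0.05 with each of the 3 tools, both with higher values in the mutant libraries, where 5.42% of all genes reached it in that direction with limma. In 4 members, Bax, Bak1, Bid and Bbc3, both mutant libraries lay above both control libraries, a pattern found in 21.9% of all genes. In 1 member, Bcl2l11, both lay below, as in 16.8% of all genes, and in the other 5 the groups overlapped. The median log2 fold change of the members was 0.16, beside 0.03 for all genes tested. With 2 libraries a group, an exact permutation test of a single value cannot give a two-sided p under 0.333.

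**Figure D1:**
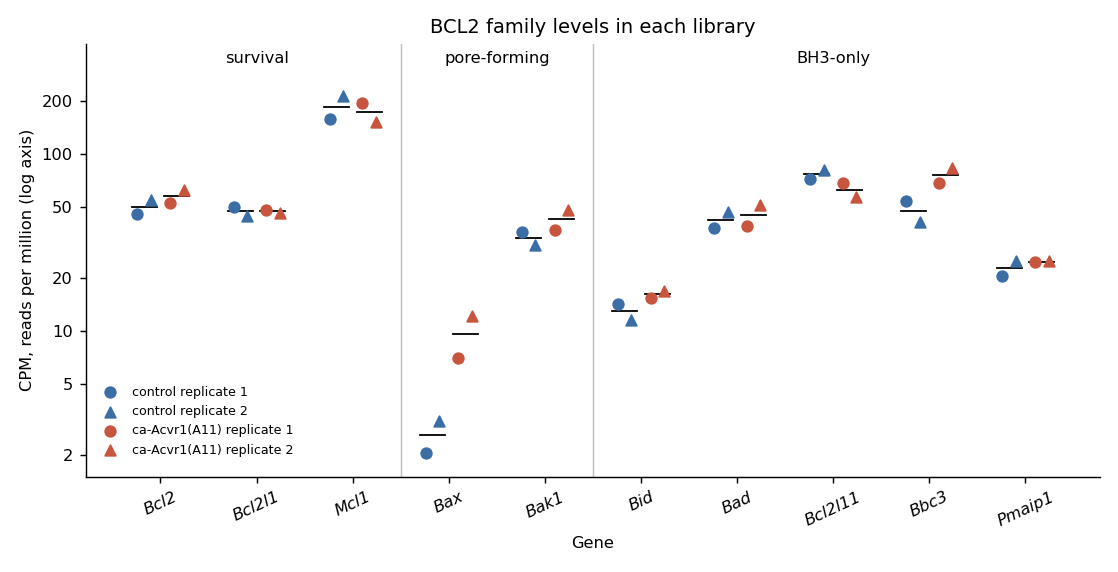
CPM of each of the 10 members in the 2 control and 2 ca-Acvr1 mutant libraries, 1 point a library on a log axis, grouped by role. Mcl1 stands above all other members in every library, and Bax lies lowest in both groups with its mutant libraries (7.06 and 12.2 CPM) above its control libraries (2.04 and 3.11 CPM).

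Averaged over the 4 libraries, the order of levels was Mcl1 (179 CPM), Bcl2l11 (69.8), Bbc3 (62.2), Bcl2 (54.1), Bcl2l1 (47.7), Bad (44.1), Bak1 (38.1), Pmaip1 (23.6), Bid (14.5) and Bax (6.09). Mcl1 stood clear of the next member, since its lowest library held 151.6 CPM and the highest library of Bcl2l11 held 81.2 CPM. The order of the next members differed by group, with Bcl2l11 (76.9 CPM), Bcl2 (50.5) and Bbc3 (48.0) in the control means and Bbc3 (76.3), Bcl2l11 (62.8) and Bcl2 (57.7) in the mutant means. From Bcl2l11 down to Bak1 the ranges of neighbours over the libraries overlapped. Pmaip1 was separated from both Bak1 and Bid, whereas Bid and Bax overlapped through the highest Bax library.

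The survival members did not differ beyond the spread of the replicates. Mcl1, a short-lived protein on which many embryonic cells depend (chromosome 3 of GRCm38, 95658788 to 95663176, plus strand), was at 158.9 and 213.1 CPM in the control and 193.9 and 151.6 CPM in the mutant libraries. Both mutant libraries of Mcl1 were close to or within the control range, and the log2 fold change was −0.10 (SE 0.16, 95% interval −0.43 to 0.23, adjusted p = 0.913 with limma). Bcl2 itself, the founding survival gene (chromosome 1, 106538178 to 106714274, minus strand), was at 46.0 and 55.0 CPM in the control and 52.7 and 62.7 CPM in the mutant libraries. The groups overlapped, with a log2 fold change of 0.19 (SE 0.18, 95% interval −0.19 to 0.57, adjusted p = 0.835). Its last exon shares 1456 bases with the antisense gene D630008O14Rik, which was not analysed here. Bcl2l1, which encodes BCL-X (chromosome 2, 152780668 to 152831728, minus strand), was at 50.6 and 44.8 CPM in the control and 48.6 and 46.8 CPM in the mutant libraries. It had a log2 fold change of 0.00 (SE 0.19, 95% interval −0.38 to 0.38, adjusted p = 0.999), and the mutant libraries lay inside the control range.

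Bax was the member with the largest difference between the groups. Its protein moves from the cytosol to mitochondria and forms the death pore, and the gene lies on chromosome 7 (45461697 to 45466898, minus strand, last exon 45461697 to 45461962). Bax had 2.04 and 3.11 CPM in the control libraries and 7.06 and 12.2 CPM in the mutant libraries, which were 4 and 7 reads against 17 and 26. Both mutant libraries of Bax lay above both control libraries, although their 95% Poisson intervals, which cover counting error only, were wide (0.557 to 5.23 and 1.25 to 6.40 CPM in the control, 4.11 to 11.3 and 7.95 to 17.8 CPM in the mutant libraries). The interval of mutant replicate 1 overlapped those of both control libraries, and that of mutant replicate 2 overlapped neither. The group means were 2.58 ± 0.752 and 9.61 ± 3.61 CPM (SD, n = 2), a ratio of 3.73. On the log2(CPM + 1) scale, which understates the change of a gene at this level, the fold change of Bax was 1.54 (SE 0.40, 95% interval 0.72 to 2.37), with an adjusted p of 0.0653 from limma and 0.0603 from edgeR. With DESeq2 the adjusted p was 0.9999. Only 0.136% of all genes tested had a higher log2 fold change, and among the 2797 genes within a factor of 2 of its mean level, 6 including Bax itself reached its value. Bax passed the threshold when control replicate 2 was left out (adjusted p = 0.0224), and of the fits with a library left out it was furthest from it without mutant replicate 2 (adjusted p = 0.715).

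Bak1, the other pore-forming gene, whose protein sits in the mitochondrial membrane of healthy cells (chromosome 17, 27019810 to 27029009, minus strand), was at 36.3 and 30.6 CPM in the control and 37.4 and 48.2 CPM in the mutant libraries. The lower mutant library exceeded the higher control library by about 1 CPM, and the log2 fold change of 0.34 did not pass the test (SE 0.21, 95% interval −0.09 to 0.76, adjusted p = 0.667 with limma). All 1226 bases of its last exon lie within the gene Ggnbp1 on the opposite strand, which was not analysed here. Bak1 had the higher CPM in each library, though whether reads are captured equally well for both genes was not assessed. The CPM of Bax amounted to 5.63% and 10.1% of that of Bak1 in the control libraries and to 18.9% and 25.2% in the mutant libraries. This ratio, like the others between single members below, was picked with the values in view and was not tested.

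Bbc3 had the next largest difference. It encodes PUMA, a BH3-only protein that binds all survival members and is a textbook target of p53, and it lies on chromosome 7 (16308393 to 16318205, plus strand, last exon 16317118 to 16318205). Bbc3 had 54.7 and 41.3 CPM in the control libraries and 68.9 and 83.8 CPM in the mutant libraries, from 93 to 179 reads a library. Both mutant libraries lay above both control libraries, with means of 48.0 ± 9.47 and 76.3 ± 10.5 CPM (SD, n = 2) and a ratio of 1.59. The log2 fold change of Bbc3 was 0.67 (SE 0.19, 95% interval 0.29 to 1.05), and its adjusted p was 0.103 with limma, 0.0979 with edgeR and 0.9999 with DESeq2. Of all genes tested, 5.32% had a higher log2 fold change, and among the 3621 genes within a factor of 2 of its mean level 40 (1.10%), Bbc3 included, reached its value. Bbc3 passed the threshold when control replicate 1 was left out (adjusted p = 0.00268), and of such fits it was furthest from it without mutant replicate 2 (adjusted p = 0.703).

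Bcl2l11 was the one member with both mutant libraries below both control libraries. It encodes BIM, which binds every survival protein and can activate BAX directly (chromosome 2, 128126038 to 128162547, plus strand). Bcl2l11 was at 72.6 and 81.2 CPM in the control and 68.5 and 57.1 CPM in the mutant libraries. The difference of −0.29 on the log2 scale did not pass the test (SE 0.17, 95% interval −0.65 to 0.06, adjusted p = 0.646 with limma).

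The remaining BH3-only members lay within or near the control range. Bad, whose protein is held inactive by survival kinases (chromosome 19, 6941861 to 6951899, plus strand), was at 38.3 and 47.1 CPM in the control and 39.4 and 51.5 CPM in the mutant libraries (log2 fold change 0.08, SE 0.20, 95% interval −0.33 to 0.49, adjusted p = 0.949 with limma). Pmaip1, which encodes NOXA, a partner of MCL-1 and another target of p53 (chromosome 18, 66458533 to 66465565, plus strand), was at 20.4 and 24.9 CPM in the control and 24.5 and 24.8 CPM in the mutant libraries. The mutant libraries of Pmaip1 were inside the control range (log2 fold change 0.12, SE 0.24, 95% interval −0.36 to 0.61, adjusted p = 0.929). Bid, which couples death receptors to mitochondria once caspase-8 has cut its protein (chromosome 6, 120891930 to 120916853, minus strand), was at 14.3 and 11.54 CPM in the control and 15.4 and 16.8 CPM in the mutant libraries. The groups of Bid did not overlap, but the Poisson intervals of the lowest library (7.54 to 16.9 CPM) and of the highest (11.8 to 23.3 CPM) did, and the log2 fold change was 0.30 (SE 0.28, 95% interval −0.27 to 0.88, adjusted p = 0.817). A noncoding Bid transcript overlaps Bcl2l13 on the opposite strand, whereas the longest coding transcript of Bid ends at 120892854, 11 bases from the end of Bcl2l13, and whether reads were counted by strand is not given in the sources used here.

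**Figure D2:**
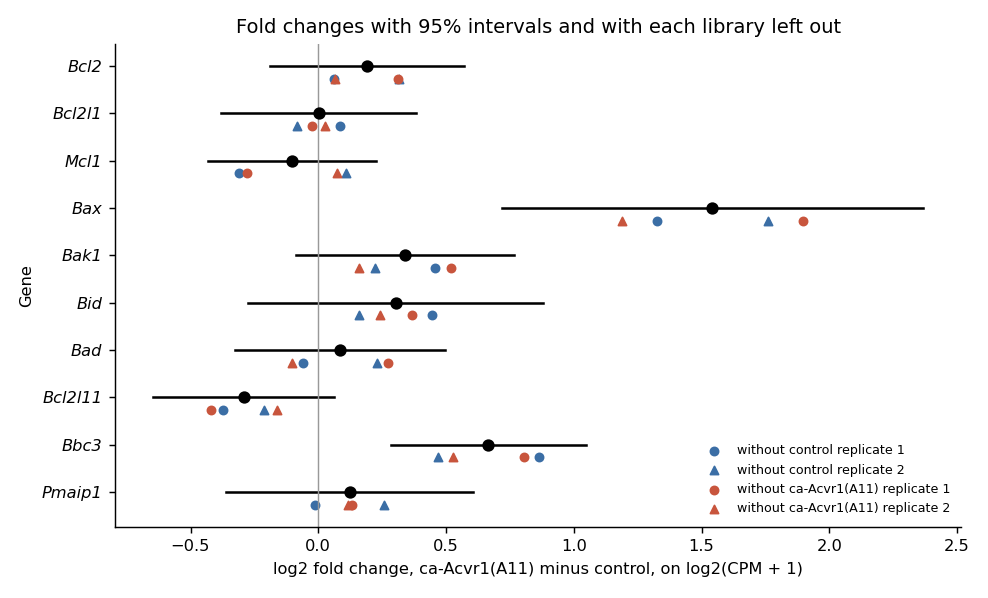
Log2 fold change (mutant over control, log2(CPM + 1) scale) of the 10 members from limma (black points) with 95% intervals (bars), and below each the values with 1 library left out (blue for a control and red for a mutant library, circles for replicate 1 and triangles for replicate 2). The intervals of Bax (0.72 to 2.37) and Bbc3 (0.29 to 1.05) lie above 0 and those of the other 8 members include 0, while no member passed the adjusted threshold.

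The 5′ regions of Bax and Bbc3 are shown because these genes had the largest differences and because p53 and SLUG, the product of Snai2, are known to act on members of the family. RefSeq windows of 300 bases around the start sites of GRCm38.p6 were found for 9 of the 10 members, in 15 windows. Shares over all windows are set beside the count of member windows. A 10-base p53 half-site consensus was found in 1 of the 15, that of Bax, starting at position −201 with the start base counted as 0, and in 8.36% of all 32851 windows. CACCTG, the core of the E-box that SLUG binds, was found on either strand in 3 of the 15 windows, from Bad and Bbc3, and in 20.2% of all windows. GGCGCC, a GC-rich site described for the SMAD proteins of BMP signaling, was found in 5 of the 15 (from Bcl2, Bad, Bcl2l11 and Bbc3) and in 11.9% of all windows, and TATAAA in 0 of the 15 and in 13.6% of all windows. The member windows with GGCGCC held 66% to 76% G or C, and those without it 49.3% to 78%. The G and C content over all windows was not computed, and its part in these counts was not tested. Windows of the same gene, as for Bbc3, were counted singly. These matches describe letters in a window and no binding. The 250 bases before the start site are printed 5′ to 3′ for Bax (chr7:45466899-45467148, minus strand, overlapping no exon annotated by GENCODE) and for the second of the Bbc3 start sites (chr7:16310011-16310260, plus strand, within introns of longer Bbc3 transcripts). The printed Bax stretch lies within the bounds of the gene Gm45808 on the same strand, which was not analysed here. Gm45808 does not overlap the last exon of Bax. Capitals mark the p53 half-site match in Bax and the CACCTG matches within the printed Bbc3 stretch, of which the one on the minus strand reads CAGGTG. A further match lies in the window of the third Bbc3 start site, which is not printed.
Bax: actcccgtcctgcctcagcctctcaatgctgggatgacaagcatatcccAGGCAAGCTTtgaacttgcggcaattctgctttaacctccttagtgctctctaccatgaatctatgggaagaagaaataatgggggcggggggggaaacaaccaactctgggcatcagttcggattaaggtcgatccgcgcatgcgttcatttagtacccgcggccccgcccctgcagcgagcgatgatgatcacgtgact
Bbc3: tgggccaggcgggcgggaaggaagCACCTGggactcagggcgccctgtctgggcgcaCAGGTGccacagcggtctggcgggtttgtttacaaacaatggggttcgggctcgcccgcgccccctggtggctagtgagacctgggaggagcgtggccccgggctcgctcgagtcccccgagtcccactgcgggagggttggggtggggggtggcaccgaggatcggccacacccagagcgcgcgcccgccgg

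Summed by role, the survival members held 255.5 and 313.0 CPM in the control and 295.2 and 261.1 CPM in the mutant libraries. These ranges overlapped, with a log2 ratio of the group means of −0.03. The pore-forming members summed to 38.3 and 33.7 CPM in the control and 44.4 and 60.4 CPM in the mutant libraries, a ratio of 1.45, and the BH3-only members to 200.3 and 206.0 CPM in the control and 216.7 and 234.0 CPM in the mutant libraries, a ratio of 1.11. For both death-promoting roles the mutant libraries lay above the control libraries, a pattern that 21.9% of all single genes showed. Within the BH3-only sum Bcl2l11 went the other way. The pore-forming and BH3-only sum divided by the survival sum was 0.934 and 0.766 in the control and 0.885 and 1.13 in the mutant libraries, so that this balance overlapped between the groups. Without Bax and Bbc3 it was 0.712 and 0.624 in the control and 0.627 and 0.760 in the mutant libraries. These sums and ratios describe the libraries and carry no test.

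**Figure D3:**
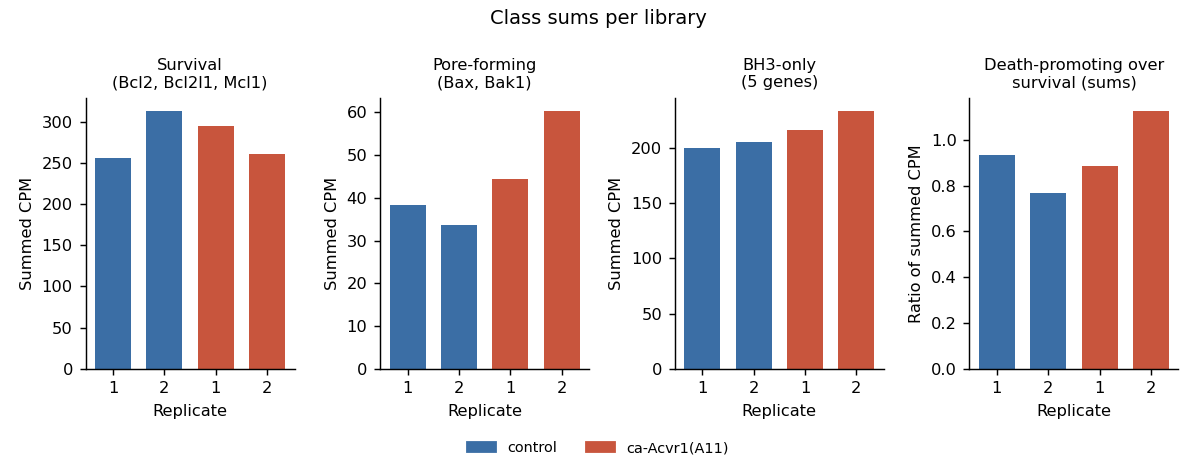
Summed CPM of the survival, pore-forming and BH3-only members, and the ratio of the death-promoting to the survival sum, in each of the 4 libraries. The survival sums (255.5 to 313.0 CPM) and the ratio (0.766 to 1.13) overlap between control and mutant libraries, whereas the pore-forming and BH3-only sums do not.

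Within the BH3-only sum, Bcl2l11 led in both control libraries and Bbc3 in mutant replicate 2, while in mutant replicate 1 they were level, with 165 and 166 reads. Bcl2l11 made up 36.2% and 39.4% of it in the control libraries and 31.6% and 24.4% in the mutant libraries. Bbc3 made up 27.3% and 20.04% in the control libraries and 31.8% and 35.8% in the mutant libraries. Accordingly, the ratio of Bbc3 to Bcl2l11 was 0.754 and 0.508 in the control and 1.01 and 1.47 in the mutant libraries, likewise picked with the values in view. Bad (18.2% to 22.8%), Pmaip1 (10.2% to 12.1%) and Bid (5.60% to 7.20%) kept overlapping shares. Within the survival sum, Mcl1 held 58.1% to 68.1%, Bcl2 17.6% to 24.01% and Bcl2l1 14.3% to 19.8%, and all 3 overlapped between the groups. The CPM of Bax relative to that of Bcl2, a ratio often quoted for the family, was 0.0444 and 0.0565 in the control and 0.134 and 0.194 in the mutant libraries. In the control libraries this RNA ratio rested on 4 and 7 reads of Bax.

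**Figure D4:**
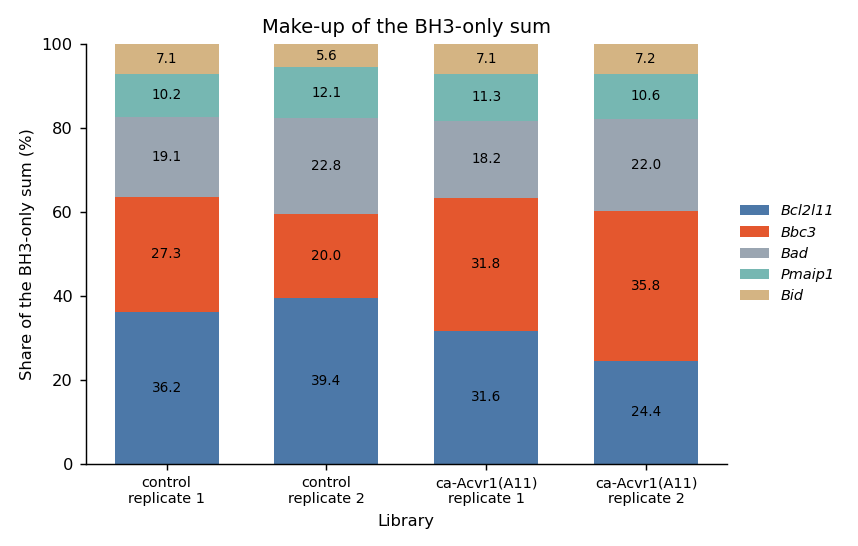
Share of the summed BH3-only CPM taken by each of the 5 BH3-only members in each library, in percent. Bcl2l11 takes the largest share in both control libraries (36.2% and 39.4%) and Bbc3 in mutant replicate 2 (35.8%), and they are level in mutant replicate 1 (31.6% and 31.8%).

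Among 16 other relatives of the family, 12 were listed and 10 tested, and 1 passed the test, lower in the mutant libraries, where 0.899% of all genes tested passed in either direction. This was Bcl2l12, a proline-rich relative reported to restrain effector caspases and p53, at 24.02 and 23.97 CPM in the control and 11.2 and 10.3 CPM in the mutant libraries (log2 fold change −1.09, SE 0.27, adjusted p = 0.0423 with limma and 0.0273 with edgeR). The call on Bcl2l12 was lost with DESeq2 (adjusted p = 0.671) and without control replicate 2 (0.122), mutant replicate 1 (0.0811) or mutant replicate 2 (0.155). Its last exon shares 233 bases with the antisense gene Gm15545, which had 0 and 1 reads in the control and 5 and 4 reads in the mutant libraries. Bnip3, a relative induced by low oxygen and the most abundant of this list, was at 114 and 80.8 CPM in the control and 85.9 and 94.99 CPM in the mutant libraries (adjusted p = 0.934). The median log2 fold change of the 10 tested relatives was 0.15, with 5 positive and 5 negative.

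Of 21 tested genes that act on transcription of the members or on p53, 2 passed, 1 in each direction, beside the same 0.899% of all genes. Mdm2, the ubiquitin ligase that degrades p53 and is itself induced by p53, rose from 88.4 and 62.6 CPM in the control to 136.6 and 123.1 CPM in the mutant libraries (log2 fold change 0.79, SE 0.17, adjusted p = 0.0153 with limma). This call was lost with DESeq2 (adjusted p = 0.189) and without control replicate 2 (0.147) or mutant replicate 1 (0.107). Snai2, whose product SLUG is known to repress Bbc3 and which is also a gene of neural crest mesenchyme, fell from 49.6 and 69.3 CPM in the control to 21.2 and 24.8 CPM in the mutant libraries (log2 fold change −1.32, SE 0.21, adjusted p = 0.000687). Snai2 stayed past the threshold under each of the alternatives run. The summed mesenchyme markers were lower in the same libraries, as given above, and their part in the Snai2 value was not tested. Trp53, the gene of p53, was at 35.8 and 54.6 CPM in the control and 37.8 and 32.8 CPM in the mutant libraries, and did not pass the test (log2 fold change −0.32, SE 0.21, adjusted p = 0.701). Atf4, a factor of the integrated stress response and the most abundant of this list, was at 337 and 279 CPM in the control and 370 and 512 CPM in the mutant libraries (log2 fold change 0.50, adjusted p = 0.168). Atf4 passed when control replicate 1 or mutant replicate 1 was left out, and over all alternatives its adjusted p ran from 0.00115 to 0.996. Of the 21 genes, 16 had a positive log2 fold change, as did 6752 of the 12462 genes tested, and the median was 0.07.

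No gene passed in the other steps of the pathway with limma, edgeR or DESeq2, where 0.899% of all genes passed with limma. Of 18 tested genes of the apoptosome, the caspases and their inhibitors, 0 were called, 4 had an unadjusted limma p under 0.05 (2 higher and 2 lower, where 9.55% of all genes reached it in either direction), and the median log2 fold change was −0.05. Birc5, which encodes survivin and is the most abundant of them, was at 930 and 845 CPM in the control and 840 and 1002 CPM in the mutant libraries (adjusted p = 0.955). Of 12 mitochondrial channels and membrane partners, 0 were called and 0 had an unadjusted p under 0.05, with a median of 0.06. Vdac2, an outer membrane channel that binds BAK, led them at 277 and 273 CPM in the control and 296 and 295 CPM in the mutant libraries (adjusted p = 0.883). Of 25 tested regulators that bind, modify or degrade members, 0 were called, 1 had an unadjusted p under 0.05, and the median was 0.01. Ywhae, a 14-3-3 protein of the kind that holds BAD in the cytosol, was the most abundant at 2020 and 1657 CPM in the control and 1873 and 1907 CPM in the mutant libraries (adjusted p = 0.959).

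**Figure D5:**
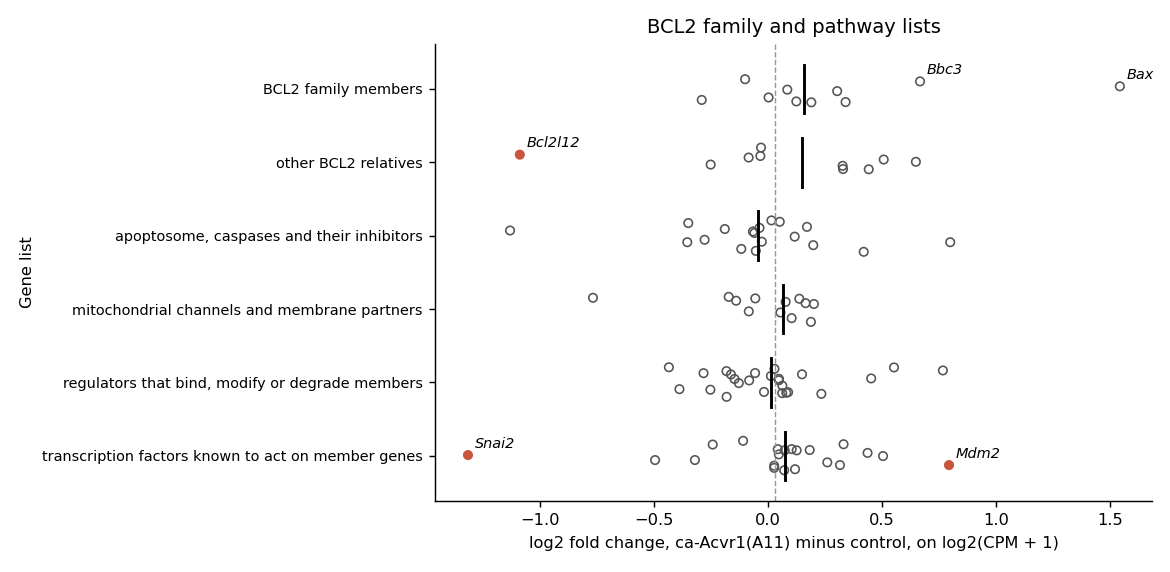
Log2 fold change (mutant over control, log2(CPM + 1) scale) of every tested gene in the 10 members and the 5 other lists, 1 point a gene, with genes past the adjusted threshold filled in red, list medians as black bars and the median of all genes tested as a dashed line. Bcl2l12 (−1.09), Mdm2 (0.79) and Snai2 (−1.32) are filled, and no point among the members is.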

How the data were processed

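RNA from E11.5 NP tissues was made into QuantSeq 3′ libraries. The authors deposited CPM values, reads scaled to each library total, for 13577 genes. Per the labels' processing notes, mm10, STAR, featureCounts 1.6.4 and DESeq2 were named, without role. Values were whole multiples of 1 read in 99.92% of cases (tolerance 0.02 reads), and 43 values in 22 genes, none of them members, were not. Genes averaging over 1 CPM (12462) were fitted as log2(CPM + 1) with limma 3.58.1 in R 4.3.3 (trended eBayes, adjusted p by Benjamini-Hochberg over all of them, threshold 0.05). edgeR 4.0.16 (quasi-likelihood) and DESeq2 1.42.0 were run on recovered reads, and other pseudocounts, filters, scalings, a replicate block and each library left out were tried. The limma fit was tested on counts simulated with a common dispersion of 0.0116 for every gene. It called 54.4% of the 193 changed genes and 4 unchanged genes. Coordinates come from GENCODE's annotation of GRCm38 and 5′ windows from RefSeq's table of GRCm38.p6. Named were all members, every called gene and the most abundant gene of each other list, with Acvr1 as the targeted gene and Trp53 as the regulator. The members and lists were chosen with earlier results of these data known. The study's legend gives another number of libraries per group than the 2 analysed here. All columns of values were used.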

Additional observations from a re-analysis of the deposited data

How the results depend on the processing

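With 2 libraries a group of at most 2408827 reads, Bax rests on 11 reads in the control and 43 in the mutant libraries and could not be tested with a minimum of 10 reads in every library. Replicate numbers did not pair the libraries (correlation of deviations 0.0671). With the replicate number as a block 2 members, Bax (adjusted p = 0.0102 with limma) and Bbc3 (0.0171), and 229 genes in all were called, against 0 and 112 without it. Atf4 was also called with the block. In units of counting variance, the mean spread between 2 libraries was 5.24 for the controls and 4.02 for the mutants. Control replicate 1 stood closer to mutant replicates 1 (3.03) and 2 (3.84) than to control replicate 2. From control replicate 2 these mutant libraries were at 6.82 and 8.47, and the part of this spread in the group differences was not tested. Leaving out each library in turn, where the lone library of a group is assumed to vary like the other group, gave 0 to 1 members, 94 to 462 genes in all (462 without control replicate 1), 0 to 1 other relatives and 1 to 3 transcription regulators. DESeq2 called 39 genes in all, 0 other relatives and 1 transcription regulator. The log2 ratio of the summed pore-forming members, 0.54, was 0.94 as a mean of log2(CPM + 1) over members. The near-zero value of Bcl2l1 turned to −0.0276 with DESeq2, −0.0281 with TMM scaling, −0.0272 with RLE scaling and −0.0153 with edgeR. With a library left out, the log2 fold change ran from −0.0840 to 0.0866 for Bcl2l1, −0.31 to 0.11 for Mcl1, −0.10 to 0.27 for Bad and −0.0120 to 0.26 for Pmaip1. No other member changed direction, and the cause of these changes was not tested. Over all alternatives the adjusted p of Bax ran from 0.0102 to 0.9999 and that of Bbc3 from 0.00268 to 0.9999.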

Other observations

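The genes of the pathway lists with an unadjusted p under 0.05 in limma but no call, other than Atf4 above, are given here as values, chosen after they had been seen. Bok, a relative able to form pores without BAX and BAK, was at 13.3 and 8.43 CPM in the control and 15.8 and 18.7 CPM in the mutant libraries (log2 fold change 0.65, adjusted p = 0.482). Cycs, the gene of cytochrome c, was at 42.4 and 43.1 CPM in the control and 49.0 and 67.4 CPM in the mutant libraries (0.42, adjusted p = 0.483). Dffb, which encodes the nuclease that cuts DNA in apoptosis, was at 8.18 and 9.77 CPM in the control and 18.3 and 14.5 CPM in the mutant libraries (0.80, adjusted p = 0.329). Casp6, an effector caspase, was at 95.1 and 108.8 CPM in the control and 72.2 and 87.5 CPM in the mutant libraries (−0.35, adjusted p = 0.495). Birc3, an inhibitor of apoptosis, was at 4.09 and 3.11 CPM in the control and 1.25 and 0.936 CPM in the mutant libraries, from 8 reads down to 2 reads a library (adjusted p = 0.424). Bag6, a chaperone, was at 112.4 and 126.5 CPM in the control and 93.8 and 82.4 CPM in the mutant libraries (−0.44, adjusted p = 0.300).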
